A study of Mus musculus with 12 samples.

Results

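Potassium channel genes were examined in the mouse aorta at day 3 of a model of aortic dissection. The genes were those whose name on the array begins with Kcn followed by letters and a digit, which covers the pore-forming subunits of potassium channels, their auxiliary subunits and 1 non-coding RNA of the Kcnq1 locus. The array held 94 such gene names on 142 probes, among 34796 gene names in all. Of these, 40 were compared, because in 1 group or more every array gave a probe of theirs a signal clearly over background, and 20026 gene names of the whole array met the same condition. Within this family, chosen with earlier results of these data known, the name and a signal above background were the criteria for a gene.

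RNA was measured in the aorta of adult male C57BL/6J mice, with 1 array for each of 12 mice. The challenge was an infusion of angiotensin II (AngII, 1 µg/kg/min) together with beta-aminopropionitrile (BAPN), an inhibitor of the enzymes that crosslink collagen, at 150 mg/kg/day. Rapamycin (2 mg/kg/day), an inhibitor of the kinase mTOR, was injected in dimethylsulfoxide (DMSO). The 4 groups of 3 mice were DMSO, rapamycin, BAPN+AngII with DMSO (BA+DMSO) and BAPN+AngII with rapamycin (BA+rapamycin). The labels name DMSO for the DMSO and BA+DMSO groups, and in the other groups it was the solvent of rapamycin. The titles of the DMSO mice call them Pre, while the series record calls them DMSO alone and gives day 3 for every sample. Should Pre mean mice taken before any injection, BA+DMSO minus DMSO and rapamycin minus DMSO would hold the injections as well, and the sources used here do not settle this. The samples were lengths of whole aortic wall, which holds smooth muscle, endothelium, adventitial and blood cells, so a lower value can come from fewer cells of a type or from less RNA per cell, and these cannot be told apart.

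The groups differed in the arrays as well as in the treatment. The 75th percentile of the processed signal was 221.5 to 337.3 on the 6 unchallenged arrays. It was 132, 78.07 and 246.4 on BA+DMSO replicates 1 to 3 and 74.62 to 109.3 on the BA+rapamycin arrays. Between 41.17% and 53.05% of probes were well above background on an array, and no spot was saturated. All DMSO arrays and rapamycin replicate 1 were on slide 1, and the other 8 arrays were on slide 2, so that slide and challenge were nearly confounded. The part of array brightness in the results below was not tested beyond the alternatives that are named.

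Potassium channels let potassium leave the cell, which draws the membrane potential of arterial smooth muscle to negative values, closes voltage-dependent calcium channels and relaxes the vessel. Voltage-gated channels (Kv) and the large-conductance calcium-activated channel (BK) open when the cell is depolarised or calcium rises, and so act as a brake on contraction. Inward rectifiers and two-pore channels pass current near the resting potential. Smooth muscle that leaves the contractile state is known to exchange BK and Kv channels for the intermediate-conductance channel encoded by Kcnn4.

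Values are log2 signals relative to the 75th percentile of the same array. A value of 0 therefore means a signal equal to that percentile, and 1 unit is a doubling in terms of fold change. The level of a single probe was not set against that of another, and summed signals of gene lists, in which the brightest probes weigh most, were compared only between arrays. A difference was called when its limma p, adjusted by the Benjamini-Hochberg method over 27801 tested probes, was under 0.05. Differences are given with the standard error (SE) of the fit and group values as mean ± SD with n = 3.

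The probe is the sequence that each value reports on. The first 30 of its 60 bases are shown here for the 7 genes on which the results turn, in lower case as no stretch was singled out, with the position of the whole probe in the mouse build mm9.
Kcnab1 (chr3:65181718-65181777, plus strand): ggggtttttgttgttgttttgttttctgta
Kcnip4 (chr5:48780889-48780948, minus strand): tttacgactgtctgcaacaataaatcaggt
Kcnma1 (chr14:24126279-24126338, minus strand): tgggtgggcagtcaatgtatacatgtaaat
Kcnc4 (chr3:107241564-107241623, minus strand): gggggaatttcatttcttttgtgtgtctcc
Kcnk13 (chr12:101300491-101300550, plus strand): caacaaacattccagagtgtctctgggcct
Kcnn4 (chr7:25169184-25169782, plus strand): gccacatagctccacatgaactcacagaag
Kcnj8 (chr6:142513487-142513546, minus strand): cacgggtcatcatgaatatgttcaaatcta
The interval given for Kcnn4 is longer than its probe. No annotation of mm9 was used here, so the exon or untranslated region under a probe is not stated.

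The first comparison, BA+DMSO minus DMSO, asked what the challenge did to these genes. Genes of Kv, BK and auxiliary subunits made up most of the members that fell, and 2 two-pore genes and Kcnn4 rose. By adjusted p, those that fell were led by Kcnip4, Kcnab1 and Kcnma1. In all, 13 of 40 members were called, 32.5%, beside 21.4% of all gene names tested. Of the members 3 rose (7.5%, beside 10.4% of all gene names) and 10 fell (25%, beside 11.0%). Of the 10 that fell, Kcnc4, Kcnj12 and Kcnq5 met the condition for testing only through the unchallenged groups, where they were high. Among the 29 members detected on all 12 arrays 3 rose and 7 fell in the main fit. In a separate fit, adjusted over probes detected on all 12 arrays only, 24.8% of gene names were called in either direction. The median difference over the 40 members was -0.089, and that over all gene names was -0.023. The lower quartile was -1.08 in the members and -0.45 over all gene names.

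By class, 5 of 14 voltage-gated members fell and 0 rose by the probe used for each gene. A dimmer probe of Kcna6, a Kv1 subunit, rose by 0.57 (limma adjusted p 0.0328). The probe used for Kcna6 differed by 0.02 (limma adjusted p 0.973), so that its probes disagreed. Of 7 auxiliary subunits 2 fell and 0 rose. Of 5 calcium- or sodium-activated channels 1 fell and 1 rose, of 5 inward rectifiers 1 fell and 0 rose, and of 2 silent voltage-gated subunits 1 fell. Of 6 two-pore channels 2 rose and 0 fell, and the non-coding RNA Kcnq1ot1 was not called. The classes were not tested against each other.

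**Figure D1:**
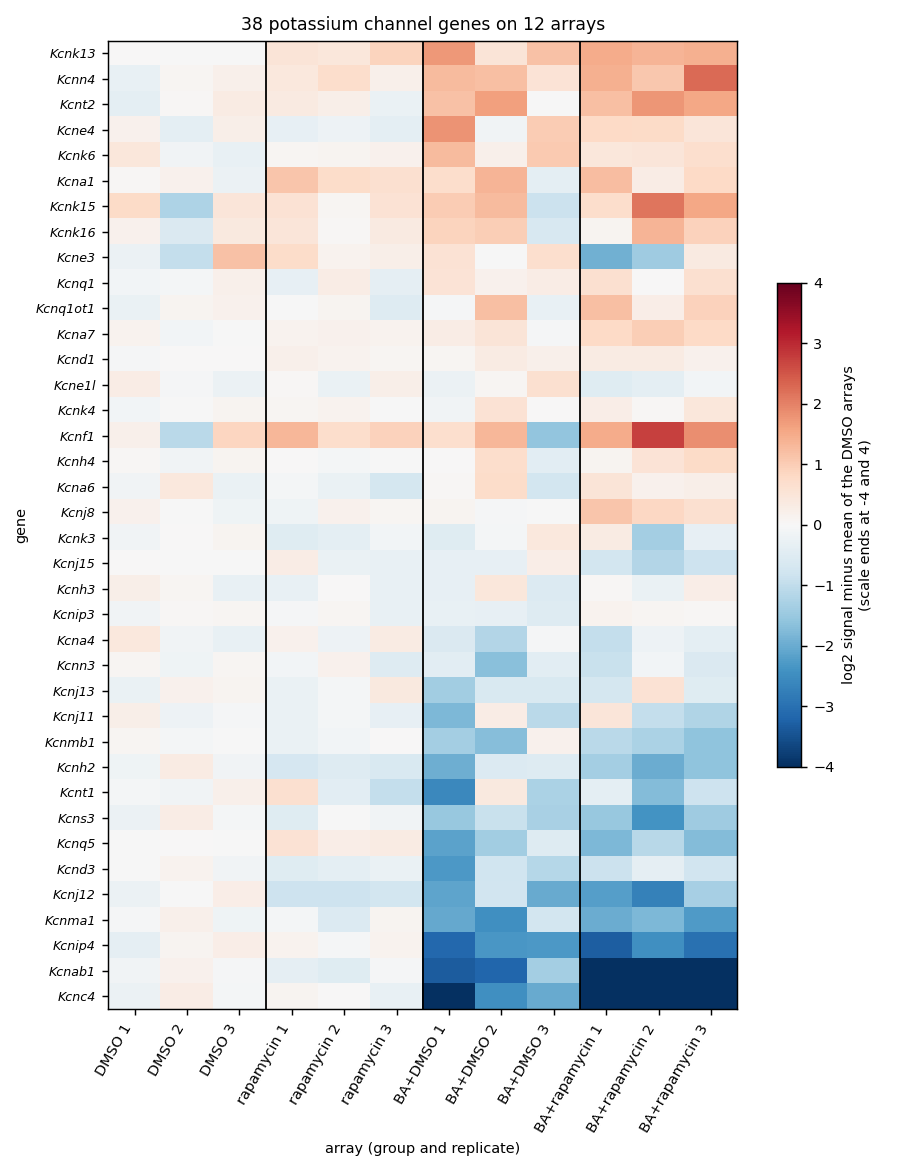
Each row is 1 of 38 potassium channel genes and each column 1 array, and the colour is the log2 signal minus the mean of the 3 DMSO arrays of that gene, on a scale that ends at -4 and 4. Rows are ordered by the difference between BA+DMSO and DMSO. The rows at the bottom, from Kcns3 to Kcnc4, are blue on nearly all challenged arrays, and the BA+DMSO arrays differ more among themselves than the arrays of the other groups do in Kcnab1.

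Kcnab1, which encodes the beta subunit Kvbeta1 that speeds the closing of Kv channels, stood at 4.52, 4.85 and 4.62 on the DMSO arrays and at 1.32, 1.5 and 3.32 on the BA+DMSO arrays. The groups did not overlap, and BA+DMSO replicate 3 kept a higher value than the others of its group. The mean fell from 4.66 ± 0.17 to 2.05 ± 1.1, a difference of -2.62 (SE 0.42, limma adjusted p 0.00231) or 6.14-fold.

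Kcnip4, which encodes a calcium-binding protein that sits on Kv4 channels, stood at 1.06, 1.53 and 1.68 in DMSO and at -1.73, -0.92 and -0.87 in BA+DMSO. The 3 challenged arrays all lay far below the DMSO arrays. The difference of -2.59 (SE 0.28, limma adjusted p 0.000401) was 6.04-fold and had the smallest adjusted p among the members in this comparison. A dimmer probe of Kcnip4 cleared background on 1 of 3 BA+DMSO arrays and was not used.

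Kcnma1, the pore of the BK channel, stood at 2.21, 2.46 and 2.08 in DMSO and at 0.19, -0.20 and 1.53 in BA+DMSO. The groups did not overlap, and the mean fell by 1.75 (SE 0.37, limma adjusted p 0.00989), 3.35-fold. All 3 of its tested probes were lower. The 2 others differed by -1.17 (adjusted p 0.0144) and -0.70 (adjusted p 0.0649).

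Kcnmb1, the beta1 subunit that tunes BK to calcium in smooth muscle, did not pass the test. Its BA+DMSO arrays stood at 2.09, 1.74 and 3.63, against 3.53, 3.37 and 3.43 in DMSO. BA+DMSO replicate 3 lay above all DMSO arrays while the other 2 lay more than 1 unit below them, and the difference was -0.96 (SE 0.39, adjusted p 0.103).

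Kcnc4, a Kv3 pore subunit, stood at 1.54, 2.05 and 1.69 in DMSO and at -5.35, -0.71 and -0.24 in BA+DMSO, where 2 of 3 spots were well above background. The difference of -3.86 (SE 1.06, adjusted p 0.0271) rested in part on a spot at the level of background. Without that array, BA+DMSO replicate 1, it was -2.24, and with normexp it was -2.28. The call of Kcnc4 was lost under 6 of 25 alternative settings. Kcnc4 was tested only through the unchallenged groups, where it was high, so these settings are no independent support for its fall.

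Kcns3, a silent subunit that forms no channel of its own and modifies other Kv pores, stood at 0.46, 1.00 and 0.61 in DMSO and at -0.83, -0.21 and -0.61 in BA+DMSO. The groups did not overlap, and the difference was -1.24 (SE 0.29, adjusted p 0.0133).

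Kcnd3, the Kv4.3 pore that Kcnip proteins bind, stood at 2.57, 2.72 and 2.42 in DMSO and at 0.28, 1.77 and 1.41 in BA+DMSO. It was lower on each challenged array, by -1.42 on average (SE 0.32, adjusted p 0.0125). Its relative Kcnd1 was nearly level on all arrays, from 0.49 to 0.88, and was not called.

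Of the Kcnq channels, which set the resting potential of vascular muscle, Kcnq5 differed by -1.35 (SE 0.34, adjusted p 0.0194), but it cleared background on 1 of 3 BA+DMSO arrays, and with normexp background correction the difference was 0.28 (adjusted p 0.275). Kcnq1 was not called, at 0.34 (SE 0.24, adjusted p 0.33). Kcnj12, an inward rectifier of the Kir2 type, differed by -1.62 (SE 0.39, adjusted p 0.0164), and cleared background on 2 of 3 BA+DMSO arrays. With normexp it differed by -0.37 (adjusted p 0.212), and its call was lost under 7 of 25 alternative settings.

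**Figure D2:**
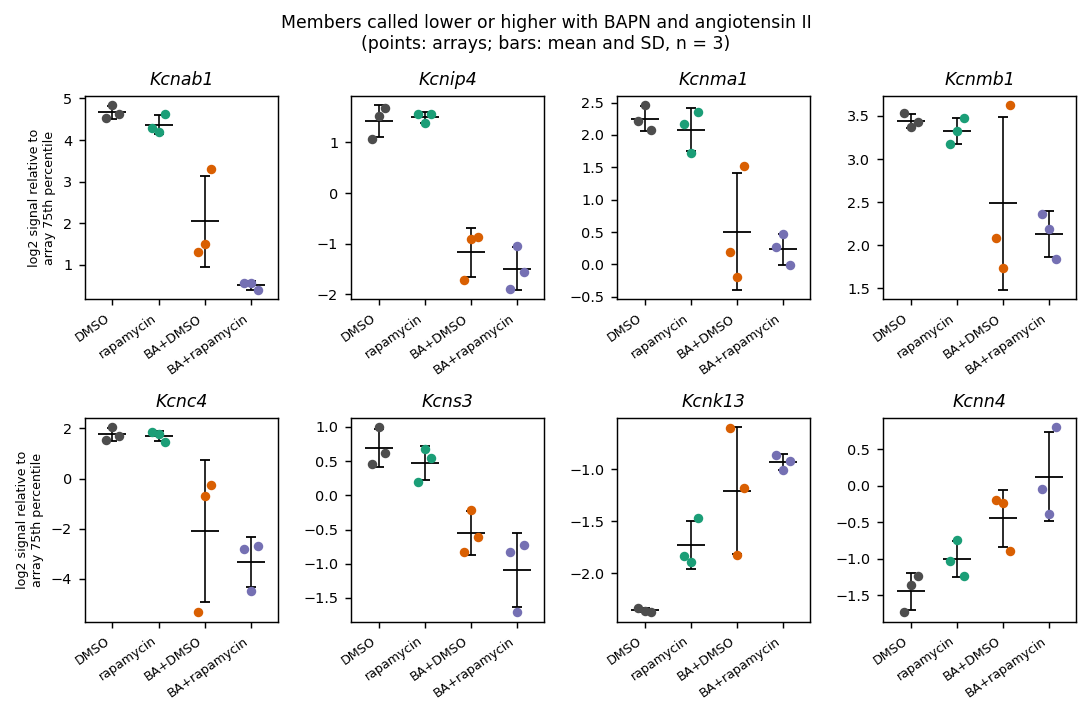
Points are arrays, and horizontal marks with bars are the mean and SD of each group (n = 3), on the log2 scale relative to the 75th percentile of the array, with an axis of its own for each gene. In Kcnab1, Kcnip4, Kcnma1, Kcnc4 and Kcns3 all challenged points lie below all unchallenged points, in Kcnmb1 BA+DMSO replicate 3 (3.63) lies with the unchallenged arrays, and in Kcnk13 and Kcnn4 the challenged points lie above the DMSO points. The low points of Kcnc4 rest in part on spots not well above background.

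The members that rose with the challenge were Kcnk13, Kcnn4 and Kcnk6. Kcnk13, the two-pore channel THIK-1, known from microglia, stood at -2.33, -2.36 and -2.37 in DMSO and at -0.61, -1.83 and -1.18 in BA+DMSO. The groups did not overlap and the difference was 1.15 (SE 0.26, adjusted p 0.0129). Kcnn4, the intermediate-conductance calcium-activated channel of activated T cells, macrophages and dividing smooth muscle, stood at -1.74, -1.37 and -1.24 in DMSO and at -0.20, -0.24 and -0.90 in BA+DMSO. Its difference was 1.01 (SE 0.31, adjusted p 0.0417), close to the threshold.

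Kcnk6, the two-pore channel TWIK-2, was the third, at 0.84 (SE 0.27, adjusted p 0.0497). Its groups overlapped, with DMSO at 1.77, 1.18 and 1.02 and BA+DMSO at 2.58, 1.54 and 2.38. The calls of Kcnn4 and Kcnk6 were each lost under 15 of 26 alternative settings, and that of Kcnk13 under 4 of 26.

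Markers of other cells moved in the same comparison. All 10 macrophage markers tested were higher in BA+DMSO, with a median difference of 2.36, and their summed signal, each as a multiple of the 75th percentile of its array, was 28.15 to 54.08 in DMSO and 88.82 to 208.3 in BA+DMSO. All 7 cell cycle genes were higher as well, with a median difference of 4.33, although Top2a and Cdk1 cleared background on 0 of 3 DMSO arrays. All 6 erythroid genes tested were higher too, with a median difference of 1.82 and a summed signal of 112.2 to 439.5 in DMSO and 694.7 to 838 in BA+DMSO. Of the other lists, 3 of 6 T cell, 3 of 8 endothelial, 2 of 5 neutrophil and 3 of 13 nerve and Schwann cell genes were higher, as were 1 of 6 adipocyte, 1 of 7 skeletal muscle and 0 of 5 cardiac muscle genes, and 1 nerve and Schwann cell gene was lower. Every macrophage marker was also well above background on all DMSO arrays. The part of these cells in the rise of Kcnk13, Kcnn4 and Kcnk6 was not tested.

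All 12 smooth muscle contractile genes of the list could be tested, and of these 3 fell (Lmod1, Synpo2 and Srf) and 0 rose, and their median difference was -0.66. Acta2 and Tagln, which encode the actin of smooth muscle and an actin-binding protein and are widely used to mark this cell type, had differences of 0.27 (adjusted p 0.402) and 0.45 (adjusted p 0.272). They were the only genes of the list with a difference above 0, and the others ran from -0.35 (Cnn1) to -2.58 (Synpo2). Myh11, the smooth muscle myosin, had -0.56 (adjusted p 0.437). The summed signal of the list was 3084 to 3288 in DMSO and 2509 to 4977 in BA+DMSO, so these overlapped. In the same arrays the summed signal of 13 vascular potassium channel genes was 65.04 to 72.73 in DMSO and 28.35 to 46.38 in BA+DMSO, with no overlap. Both sums rest mostly on the brightest probes of their list. By gene the lists were closer, with median differences of -0.84 (5 of 13 lower) and -0.66 (3 of 12 lower). They were not tested against each other.

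**Figure D3:**
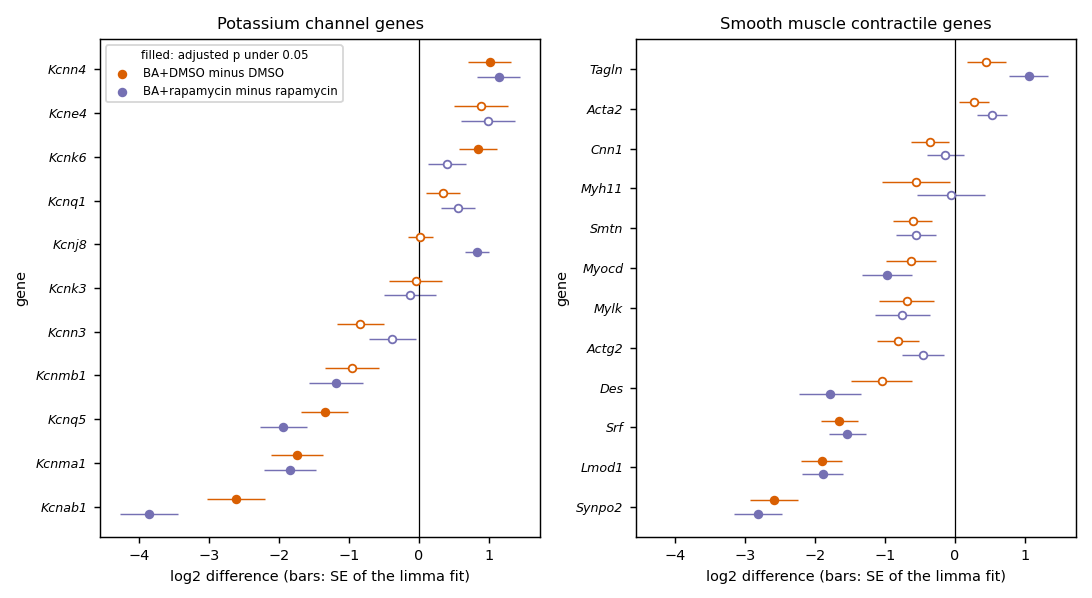
The left panel shows the log2 differences of 11 vascular potassium channel genes and the right panel those of 12 smooth muscle contractile genes, with the SE of the limma fit, for BA+DMSO minus DMSO and BA+rapamycin minus rapamycin, and filled points passed the test. Kcnab1 and Kcnma1 lie at the negative end on the left and Synpo2 and Lmod1 on the right, where only Acta2 and Tagln lie above 0. The violet points of Kcnq5 and Kcnn3 rest on spots not well above background.

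Seen as the 17 potassium channel genes of known role in vessels, 13 were tested, of which 5 were called lower, among them Kcnab1, Kcnma1 and the dim Kcnq5, and 2 rose (Kcnn4 and Kcnk6), beside 11.0% lower and 10.4% higher of all gene names, with a median difference of -0.84. Kcna2, Kcna3 and Kcnj2 were well above background on 0 of 12 arrays and Kcna5 on 3 of 12, so that no level of these Kv1 and Kir2 genes could be compared. Kcnj8, the Kir6.1 pore of the vascular KATP channel, differed by 0.02 (SE 0.17, adjusted p 0.949). Kcnk3, the two-pore channel TASK-1, differed by -0.05 (SE 0.37, adjusted p 0.938). Kcne4, a beta subunit of Kcnq channels, differed by 0.89 (SE 0.39, adjusted p 0.126), and Kcnn3, a small-conductance channel of endothelium, by -0.84 (SE 0.34, adjusted p 0.101), with 1 of 3 BA+DMSO arrays above background.

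Genes that work with these channels were counted as well. Of 10 tested partners that are not members, 1 fell, Nedd4l (-0.93, adjusted p 0.00859), a ubiquitin ligase that acts on ion channels, and 1 rose, Hcn2 (1.16, adjusted p 0.0105), a pacemaker channel. Of 24 calcium, cation and chloride channel genes 5 fell and 1 rose, beside 11.0% lower and 10.4% higher of all gene names. Falls thus outnumbered rises in this list as well as in the members. Those that fell were Cacnb2, Cacna2d1 and Cacna2d3, auxiliary subunits of voltage-dependent calcium channels, and Ryr2 and Itpr1, calcium release channels of the sarcoplasmic reticulum. Itpr1 differed by -1.42 (adjusted p 0.00207) and Ryr2 by -1.80 (adjusted p 0.0143).

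Limits of the challenge result come from the slide, array brightness and single mice. With slide as a fixed block, where rapamycin replicate 1 alone shares a group with arrays of the other slide, 0 members and 0.0599% of all gene names were called, and Kcnab1 differed by -2.72 (adjusted p 0.264) and Kcnip4 by -2.49 (adjusted p 0.151). With array brightness as a covariate, 8 members were called, beside 19.5% of all gene names, and Kcnma1 (-0.98, adjusted p 0.0674) was not, while Kcnab1 differed by -1.77 (adjusted p 0.0136) and Kcnip4 by -2.73 (adjusted p 0.00265). Without DMSO replicate 2 only 3 members were called, Kcnab1, Kcnip4 and Kcnma1, while 7.87% of all gene names were. The count was 6 without DMSO replicate 3, beside 11.7% of all gene names, 7 without BA+DMSO replicate 1, beside 11.9%, and 18 without BA+DMSO replicate 3, beside 39.4%.

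The second comparison, BA+rapamycin minus rapamycin, asked the same in mice given rapamycin. Kcnab1, Kcnip4 and Kcnma1 fell here too, Kcnmb1 passed the test, and Kcnj8 was among those that rose. In all, 17 of 40 members were called, 42.5%, which was near the 42.7% of all gene names. Of the members 5 rose (12.5%, beside 19.8%) and 12 fell (30%, beside 22.9%). The 12 again include Kcnc4, Kcnj12 and Kcnq5, tested only through the unchallenged groups, where they were high. Among the 29 members detected on all 12 arrays 5 rose and 9 fell in the main fit. The separate fit to probes detected on all 12 arrays called 48.4% of gene names in either direction. The median difference was -0.17 in the members and -0.067 over all gene names. No array is shared with the first comparison.

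Kcnab1 stood at 4.30, 4.19 and 4.62 on the rapamycin arrays and at 0.57, 0.57 and 0.40 on the BA+rapamycin arrays. The 3 challenged values were nearly equal, unlike those of BA+DMSO, and the difference was -3.86 (SE 0.42, limma adjusted p 0.000214) or 14.5-fold. Kcnip4 stood at 1.57, 1.38 and 1.55 in rapamycin and at -1.89, -1.04 and -1.55 in BA+rapamycin, a difference of -3.00 (SE 0.28, adjusted p 0.000117). Kcnma1 differed by -1.84 (SE 0.37, adjusted p 0.00427), and another probe by -1.04 (adjusted p 0.0132), while the third cleared background on 1 of 3 BA+rapamycin arrays.

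Kcnmb1 stood at 3.18, 3.32 and 3.47 in rapamycin and at 2.36, 2.19 and 1.84 in BA+rapamycin. The groups did not overlap, and the fall of 1.19 (SE 0.39, adjusted p 0.0309) meant that both genes of the BK channel passed the test in this comparison. The call of Kcnmb1 was lost with slide as a fixed block (-1.27, limma adjusted p 0.06). With the log2 75th percentile of each array as a covariate, which adjusts for the dim challenged arrays, Kcnmb1 differed by 0.31 (adjusted p 0.693), Kcnma1 by -0.51 (adjusted p 0.533), and 2 members in all were called, Kcnab1 (-2.38, adjusted p 0.0308) and Kcnip4 (-3.23, adjusted p 0.0132), beside 6.91% of all gene names.

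Other Kv genes were also lower under rapamycin. Kcns3 differed by -1.56 (SE 0.29, adjusted p 0.00269). Kcnh2, the HERG channel that also sits in smooth muscle, differed by -1.06 (SE 0.35, adjusted p 0.0329). Its call was lost with slide as a fixed block (-1.09, limma adjusted p 0.0695). Kcnc4 was at 1.88, 1.77 and 1.46 in rapamycin and at -2.83, -4.50 and -2.68 in BA+rapamycin, where 1 of 3 arrays was well above background. Its fitted difference of -5.04 (SE 1.06, adjusted p 0.00499) rested on those dim spots, and with normexp background correction it was -2.69. Since Kcnc4 was tested only through the unchallenged groups, where it was high, the normexp value is no independent support for its fall. The groups of Kcns3 and Kcnh2 did not overlap.

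Kcnj12 and Kcnq5 were not well above background on any BA+rapamycin array, so only a bound could be given there. It is the mean of the bright group against, on each dim array, the higher of the lowest signal well above background and the signal of the probe itself. Kcnj12 was at least 1.38-fold lower (adjusted p 0.0245) and Kcnq5 at least 1.03-fold lower (adjusted p 0.00223), where both adjusted p are of fits to spots not above background. These bounds hold for the processed signal only, since with normexp the differences were 0.30 and 0.41, in the other direction. Kcnd3, which fell in the first comparison, had 2.10, 2.16 and 2.30 in rapamycin and 1.70, 2.21 and 1.80 in BA+rapamycin, which overlapped, and its difference was -0.28 (SE 0.32, adjusted p 0.488). Kcnj15, an inward rectifier, differed by -0.83 (SE 0.23, adjusted p 0.0156), but its dimmer probe, above background on 2 of 3 arrays in each of these groups, by 1.15 (adjusted p 0.0597), so that its probes disagreed.

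Of the members that rose under rapamycin, Kcnt2, a sodium-activated channel, stood at -0.89, -1.02 and -1.51 in rapamycin and at -0.07, 0.50 and 0.30 in BA+rapamycin. The difference was 1.38 (SE 0.38, adjusted p 0.0161), and in the first comparison it was 0.93 (adjusted p 0.106). With array brightness as a covariate these were -0.27 (adjusted p 0.609) and -0.0059 (adjusted p 0.986), so that its direction turned. Kcnn4 rose by 1.14 (SE 0.31, adjusted p 0.0153) and Kcnk13 by 0.80 (SE 0.26, adjusted p 0.0317). The call of Kcnk13 was lost under 11 of 27 alternative settings and that of Kcnn4 under 4 of 27. Kcna7, a Kv1 subunit, rose by 0.70 (SE 0.17, adjusted p 0.0102) and its dimmer probe by 1.62 (adjusted p 0.0198). Kcnk6 was not called, at 0.40 (SE 0.27, adjusted p 0.244).

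Of the vascular genes not called here, Kcne4 differed by 0.98 (SE 0.39, adjusted p 0.0615), Kcnq1 by 0.56 (SE 0.24, adjusted p 0.0818) and Kcnk3 by -0.13 (SE 0.37, adjusted p 0.795). Kcnn3 was not well above background on any BA+rapamycin array, and no fold could be given. The vascular list as a whole had 6 members that fell and 2 that rose. Of the 12 contractile genes 5 fell and 1 rose, of 10 macrophage markers 7 rose, and of 24 calcium, cation and chloride channel genes 8 fell and 1 rose. Over all gene names 42.7% were called, with 22.9% lower and 19.8% higher, and no list was tested against that share. Of the markers of other cells, 7 of 7 cell cycle genes (median difference 4.23), 4 of 6 erythroid, 3 of 6 T cell, 2 of 5 neutrophil, 4 of 13 nerve and Schwann cell, 3 of 7 skeletal muscle, 1 of 5 cardiac muscle and 1 of 8 endothelial genes rose. Cyp21a1, the 1 tested gene of an adrenal, kidney and liver list, rose as well (0.95, limma adjusted p 0.0122). Of the same lists, 2 nerve and Schwann cell genes, 2 endothelial genes and 1 skeletal muscle gene fell, as did 1 of 6 adipocyte genes, and their part in the members' differences was not tested.

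**Figure D4:**
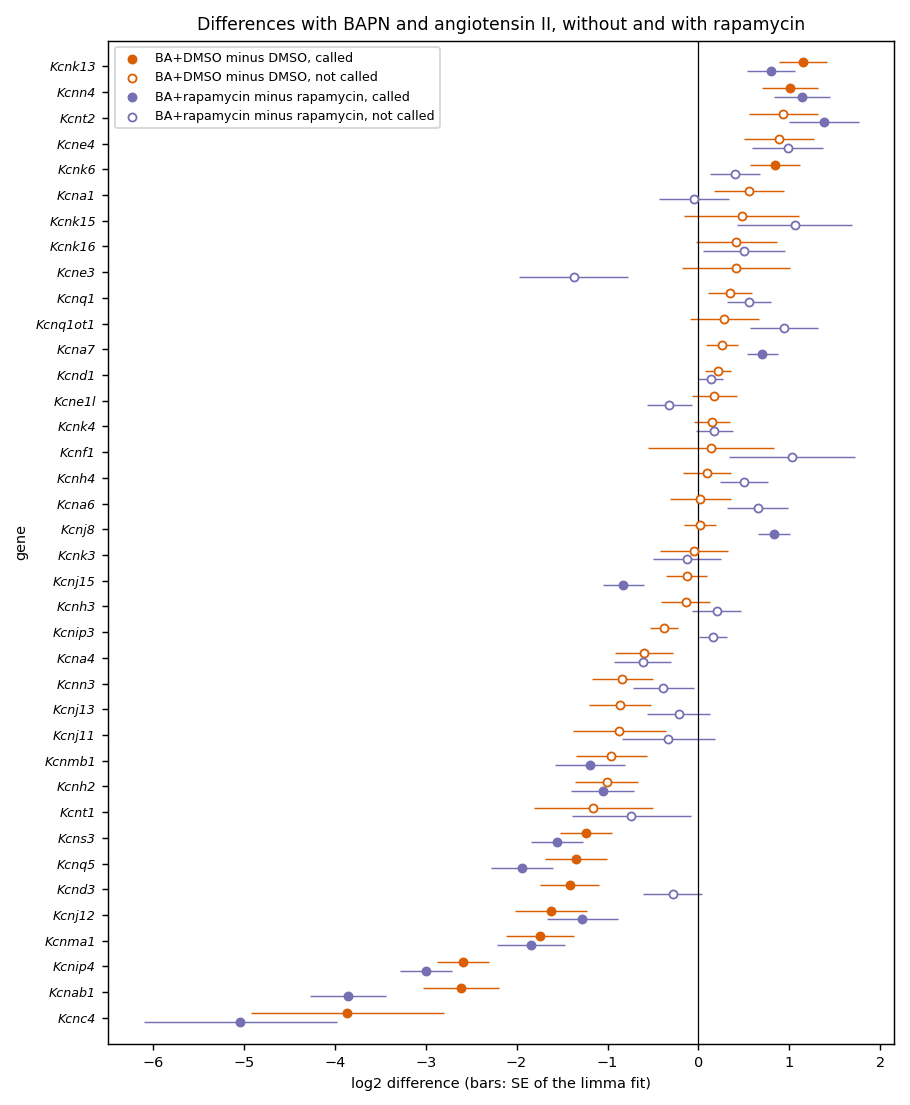
Points are log2 differences with the SE of the limma fit for 38 potassium channel genes, orange for BA+DMSO minus DMSO and violet for BA+rapamycin minus rapamycin, and filled points passed the adjusted p of 0.05. Kcnc4, Kcnab1 and Kcnip4 lie farthest to the left in both comparisons, Kcnc4 in part through spots at background, and Kcnj8 (0.02 and 0.83) and Kcnd3 (-1.42 and -0.28) are among those whose 2 points lie apart. The violet points of Kcnj11, Kcnj12, Kcnn3, Kcnq5 and Kcnt1 rest on BA+rapamycin spots not well above background. The orange points of Kcnj11 and Kcnt1 likewise rest on BA+DMSO spots not well above background.

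Within slide 2, which held rapamycin replicates 2 and 3 and all challenged arrays, 4 members were called in this comparison, beside 12% of all gene names. They were Kcnab1 (-3.90, adjusted p 0.0102), Kcnip4 (-2.96, adjusted p 0.00791), Kcns3 (-1.70, adjusted p 0.0291) and Kcnq5, which was not above background on the BA+rapamycin arrays and for which only the bound above holds. This fit shares all its arrays with the comparison above and is no independent check of it.

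The third comparison, BA+rapamycin minus BA+DMSO, asked whether rapamycin changed these genes in the challenged aorta. It called 0 of 40 members by limma, beside 0.305% of all gene names. At an unadjusted p under 0.05 there were 8 members (20%), beside 20.5% of all gene names. The smallest adjusted p was that of Kcnj8, 0.0696, which ranged from 0.00843 to 0.612 over 27 alternative settings and passed in 6 of them. Its values were 0.24, 0.09 and 0.13 in BA+DMSO and 1.23, 0.95 and 0.78 in BA+rapamycin, a difference of 0.83 (SE 0.17), with no overlap between the groups.

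Of the other members with the widest differences, Kcnf1, a silent Kv subunit, was at -2.82, -2.15 and -5.06 in BA+DMSO and at -2.01, -0.76 and -1.63 in BA+rapamycin, a difference of 1.88 (SE 0.69, adjusted p 0.195), and it cleared background on 1 of 3 BA+DMSO arrays. Kcnk15, a two-pore channel, differed by 0.99 (SE 0.63, adjusted p 0.354) with groups that overlapped. Kcnab1 differed by -1.54 (SE 0.42, adjusted p 0.117), Kcne3, a Kv beta subunit, by -1.41 (SE 0.60, adjusted p 0.229) and Kcnc4 by -1.24 (SE 1.06, adjusted p 0.466), a value that rests on dim spots in both groups and ranged from -2.86 to 2.52 over the alternatives. Kcne3 too was dim, above background on 2 of 3 BA+DMSO and 1 of 3 BA+rapamycin arrays, and with normexp it differed by -0.0054 (adjusted p 0.988). Kcnab1 was lower on every BA+rapamycin array than on every BA+DMSO array.

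The count moved most when BA+DMSO replicate 2 was left out. Without it, 11 of 40 members were called, while 41.0% of all gene names were called. Among them Kcnj8 differed by 0.80 (adjusted p 0.00843), Kcnab1 by -1.81 (adjusted p 0.0134), Kcnd3 by 1.06 (adjusted p 0.0201) and Kcnj15 by -0.88 (adjusted p 0.0178).

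**Figure D5:**
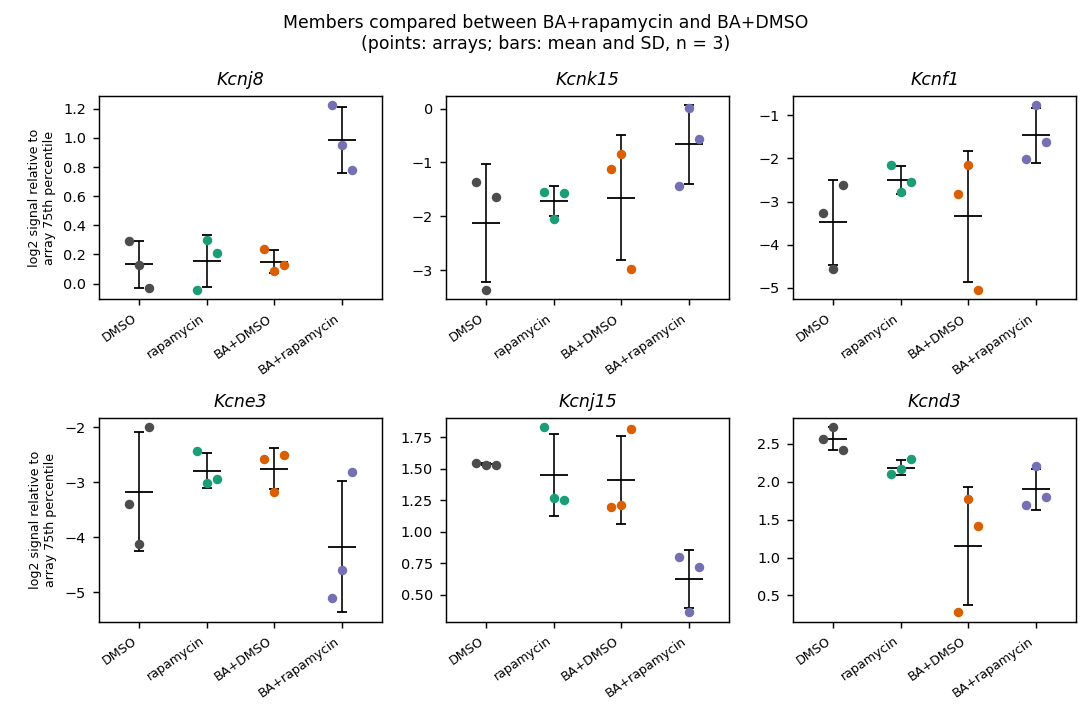
Points are arrays, and marks with bars are group means and SD (n = 3), on the log2 scale relative to the 75th percentile of the array, with an axis of its own for each gene. The 3 BA+rapamycin points of Kcnj8 (0.78 to 1.23) lie above all other arrays and those of Kcnj15 (0.36 to 0.80) below them, whereas Kcnk15, Kcnf1 and Kcne3 spread widely within groups.

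In the aorta without challenge, rapamycin minus DMSO called 0 of 40 members by limma, beside 0.00499% of all gene names. At an unadjusted p under 0.05 there was 1 member (2.5%), beside 4.43% of all gene names. That member was Kcnk13, which stood at -1.83, -1.89 and -1.47 in rapamycin, above all DMSO arrays, with a difference of 0.63 (SE 0.26, adjusted p 1). The 3 widest differences upward were those of Kcnf1 (0.99), Kcna1 (0.82) and Kcnk13, and the 3 widest downward those of Kcnj12 (-0.80), Kcnh2 (-0.59) and Kcnd3 (-0.38), each with an adjusted p of 1. Kcnf1 cleared background on 2 of 3 DMSO arrays, and with normexp it differed by 0.23 and Kcna1 by 0.42. The interquartile range of the members, -0.19 to 0.13, was narrow beside that of the challenge, -1.08 to 0.30, and so was that of all gene names, at -0.16 to 0.15 beside -0.45 to 0.43.

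Whether the challenge acted differently with rapamycin was tested by the interaction. It called 0 of 40 members by limma, beside 0% of all gene names. At an unadjusted p under 0.05 there were 3 members (7.5%), beside 6.01% of all gene names. These were Kcnj8, Kcnd3 and Kcnip3 (0.54, SE 0.22, limma adjusted p 0.737). Kcnj8 had the smallest adjusted p (difference 0.81, SE 0.25, adjusted p 0.658), and Kcnab1 (-1.24, SE 0.59), Kcnd3 (1.13, SE 0.45) and Kcne3 (-1.79, SE 0.85) each had an adjusted p of 0.737. A call in one comparison and not in the other, as for Kcnj8, Kcnmb1, Kcnd3 and Kcnk6, is therefore not shown to be a difference between them.

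The members called in either comparison of the challenge were also looked at in sequence. Windows of 250 bases before a start site, in RefSeq's GRCm38.p6, were given for 16 of the called genes (21 windows). They were searched on both strands for the CArG box of serum response factor, for TGANTCA, a site of AP-1, and for CACGTG, an E-box, which do not overlap in the windows shown. The CArG box was found in 0 of 21 windows, beside 1.47% of all 32851 windows, TGANTCA in 1, beside 6.75%, and CACGTG in 3, beside 6.02%. All 4 windows with a match are shown, with the match in capitals.
Kcnab1 (chr3:65108764-65109013, plus strand, CACGTG): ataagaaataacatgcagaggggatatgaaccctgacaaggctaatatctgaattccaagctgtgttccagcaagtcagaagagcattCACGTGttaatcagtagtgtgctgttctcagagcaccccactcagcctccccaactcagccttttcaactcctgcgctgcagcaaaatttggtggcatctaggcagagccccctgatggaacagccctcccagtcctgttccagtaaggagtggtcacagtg
Kcnab1 (chr3:65187853-65188102, plus strand, CACGTG): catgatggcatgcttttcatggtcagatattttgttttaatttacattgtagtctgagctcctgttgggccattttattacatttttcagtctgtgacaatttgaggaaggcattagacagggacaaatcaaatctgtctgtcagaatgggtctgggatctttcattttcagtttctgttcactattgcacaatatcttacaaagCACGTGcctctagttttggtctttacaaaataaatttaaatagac
Kcnip4 (chr5:49285660-49285909, minus strand, TGANTCA): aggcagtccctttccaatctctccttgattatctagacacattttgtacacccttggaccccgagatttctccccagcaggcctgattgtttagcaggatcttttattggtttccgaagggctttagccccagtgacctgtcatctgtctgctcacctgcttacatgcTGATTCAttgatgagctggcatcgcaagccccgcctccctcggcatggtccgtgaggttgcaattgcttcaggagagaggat
Kcnn4 (chr7:24370013-24370262, plus strand, CACGTG): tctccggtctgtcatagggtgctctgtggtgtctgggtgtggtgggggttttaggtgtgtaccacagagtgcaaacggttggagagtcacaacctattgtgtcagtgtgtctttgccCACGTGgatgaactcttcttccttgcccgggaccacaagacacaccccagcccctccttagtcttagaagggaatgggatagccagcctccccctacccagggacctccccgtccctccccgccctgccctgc
A match describes these letters in these windows only.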

How the data were processed

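RNA of 12 mouse aortas was labelled with Cy3 and hybridised to 1-colour Agilent arrays, 2 slides in all. Feature Extraction 10.7.1.1 quantified the images according to the scanner files, and the submitters' processing notes name 9.5.1.1. The authors deposited a processed signal, which is an intensity with background subtracted, on a linear scale and without normalization across arrays. The mean spot signal and local background are deposited intensities too, and the deposited flags are 0 or 1 for each spot. The deposited series matrix holds normalized intensities on a linear scale. Its log2 values correlated with a quantile normalization of the log2 processed signals on each array (r at least 0.999941). Its direction was therefore taken as that of signal, and its log2 was used.

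From the 62976 spots of an array, 3671 control spots and spots flagged as outliers were left out, spots of a probe were averaged on the log2 scale, and the 75th percentile of the array was subtracted. A probe was tested if at least 0.5 of its spots were well above background on all 3 arrays of a group. A gene was represented by its tested probe with the highest mean over the 12 arrays, so alternative transcripts were not separated. limma 3.58.1 in R 4.3.3 fitted 4 group means to all 12 arrays with 1 variance per probe, and p-values were adjusted over 27801 probes. The procedure was tested on simulated data. The number of arrays limits the precision. Whether the mice of a group are independent is known only from the labels. The p-values set a difference of group means against a spread between arrays that was pooled over the 4 groups. No column was left unmapped.

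The members and gene lists were chosen with earlier results of these data known. Genes named with values were the 17 vascular potassium channel genes and, for both challenge comparisons, the 8 largest rises and falls among called members. For both rapamycin comparisons the 3 largest differences in each direction were added. Kcna6, Kcnd1, Kcnj15 and Kcnh2 in the challenge, the members named as settings changed, and genes of other lists were named after their values were seen. Of the 40 symbols 39 matched RefSeq by accession and 1 by symbol. Alternatives covered normalization, background correction, filters, slide, digits shared by titles, array weights, brightness, samples in the fit, the probe of a gene, a stricter rule and each array left out. The values of 2 members are not reported here and are not drawn, but they remain in the counts.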

Additional observations from a re-analysis of the deposited data

How the results depend on the processing

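The number of members called was 13 for the challenge, 17 for the challenge under rapamycin and 0 for the other 3 comparisons. Leaving out 1 array gave 3 to 18 for the challenge (7.87% to 39.4% of all gene names), 11 to 20 under rapamycin (24.2% to 58.3%), 0 to 11 for rapamycin under challenge (0.115% to 41%), 0 for rapamycin alone (0% to 0.02%) and 0 to 1 for the interaction (0% to 11.2%). In the order challenge, challenge under rapamycin and rapamycin under challenge, and with the share of all gene names called in parentheses, the counts were 20, 23 and 7 with array weights (49.2%, 63.4%, 27.4%), 8, 2 and 1 with brightness as a covariate (19.5%, 6.91%, 1.21%), 2, 23 and 0 with only the groups compared (4.78%, 57.8%, 0%), 3, 3 and 0 at p under 0.01 with 4-fold (2.83%, 5.43%, 0.17%), 9, 8 and 0 with the title digits as a block (5.96%, 12.7%, 0%), 0, 11 and 0 with slide as a fixed block (0.0599%, 29.2%, 0.13%) and 21, 17 and 0 with slide as a random block (37.8%, 44%, 0.255%; correlation -0.133). They were 12, 50 and 0 with no filter on dim probes (8.63%, 51.3%, 0.0517%), 11, 26 and 0 with normexp (25.2%, 62.3%, 0.0499%), and 1 for rapamycin under challenge with quantile normalization (0.829%), with the deposited matrix (0.824%) and with the percentile over detected probes (1.76%). Array weights gave 2 calls for rapamycin alone (2.54%) and 1 for the interaction (4.98%). Slide 2 alone gave 4 under rapamycin (12%), and slide 1 alone, with 1 rapamycin array, gave 0 for rapamycin alone. The cause of these shifts was not tested, except that no filter tests more genes and single slides hold fewer arrays. Title digits and final number are shared by 2 DMSO and 2 rapamycin mice, and by 1 DMSO and 1 BA+rapamycin mouse, whose groups were not compared. A fit with this replicate block over the former gave 0 calls for rapamycin alone (0.0899%), with too few pairs to check whether the numbers pair the mice.

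The sign differed from the reported value in 28 of 1355 tries over 51 results, and in 7 of these the difference was called under one of the settings. With normexp, the difference was 0.28 for Kcnq5 in the challenge and 0.41 for Kcnq5, 0.30 for Kcnj12, 0.46 for Kcnk3 and 0.61 for Kcnn3 under rapamycin, all with mean signals below the 75th percentile of the array. With brightness as a covariate it was -0.27 for Kcnt2 and 0.31 for Kcnmb1 under rapamycin. Kcnab1 and Kcnip4 passed the test in 25 of 26 alternatives for the challenge, the exception being slide as a fixed block, and in 27 of 27 under rapamycin. Low signal over background limits Kcnc4, Kcnj12, Kcnq5, Kcnn3 and Kcne3 in the challenged groups, and Kcnf1 in DMSO and BA+DMSO.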
